A study of Mus musculus with 6 samples.

Results

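The genes described here encode Wnt ligands, their Frizzled receptors and the co-receptors, antagonists, relay proteins and nuclear factors of the same pathway. They were chosen by name, as a list of 45 mouse genes, with earlier results of these data known. All 45 had a probe among the 20659 genes named on the array. The study compared RNA of cultured B16-F1 mouse melanoma cells with RNA of cultured D5.1G4 mouse melanoma cells, which the series title presents as tumours that differ in tumorigenicity. The cells of both lines were untreated. They were seeded at 1000000 cells in 6-well plates, cultured for 24 h in RPMI medium with 10% FBS, and were between 75% and 95% confluent. Each line was measured on 3 one-colour Agilent arrays. Whether the 3 samples of a line came from separate cultures is not stated, so the p-values measure the spread among these samples alone, and that spread may be technical.

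Wnt proteins are secreted, lipid-modified ligands that bind a Frizzled receptor together with the co-receptor Lrp5 or Lrp6. Without a ligand, a complex built on Axin and Apc marks beta-catenin for destruction; when the receptors are engaged, Dishevelled proteins block that complex, and beta-catenin acts in the nucleus with Tcf and Lef transcription factors. Some ligands and receptors act through branches that do not use beta-catenin, among them planar polarity. In the neural crest the pathway favours the melanocyte fate, and Mitf, the master regulator of melanocytes, is one of its reported targets.

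Promoter sequences are shown for 4 of the genes that differed between the lines: Fzd9 and Nkd1, whose brightest probe was above background in only 1 line, Dvl2, the relay gene with the largest rise, and Wnt5b, a ligand with a Tcf motif at 1 of its 3 listed starts. They are RefSeq sequences of the GRCm38.p6 build, 300 bases each around a transcript start, 5′ to 3′ on the strand of the gene. Fzd9 is at chr5:135250998-135251297 (minus strand) and Dvl2 at chr11:70000342-70000641 (plus strand). Nkd1 is at chr8:88527383-88527682 (plus strand) and Wnt5b, the most downstream start, at chr6:119449337-119449636 (minus strand). Capitals mark CACGTG, the E-box core that Mitf and other helix-loop-helix factors can bind, and CTTTGAT, a core of Tcf and Lef sites. Both were searched on both strands, cannot overlap in these windows because no window holds both, and were picked after the differences were known.
Fzd9: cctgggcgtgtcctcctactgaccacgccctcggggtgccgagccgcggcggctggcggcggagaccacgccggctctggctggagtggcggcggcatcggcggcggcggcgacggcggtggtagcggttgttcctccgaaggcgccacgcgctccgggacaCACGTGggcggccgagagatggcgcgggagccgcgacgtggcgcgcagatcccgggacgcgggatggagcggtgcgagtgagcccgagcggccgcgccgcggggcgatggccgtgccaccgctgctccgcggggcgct
Dvl2: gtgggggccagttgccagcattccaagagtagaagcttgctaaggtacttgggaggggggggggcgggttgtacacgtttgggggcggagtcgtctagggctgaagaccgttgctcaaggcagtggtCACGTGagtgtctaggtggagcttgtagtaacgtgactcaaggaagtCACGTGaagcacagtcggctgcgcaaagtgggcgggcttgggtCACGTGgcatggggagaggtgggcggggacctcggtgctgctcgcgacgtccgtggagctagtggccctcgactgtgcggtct
Nkd1: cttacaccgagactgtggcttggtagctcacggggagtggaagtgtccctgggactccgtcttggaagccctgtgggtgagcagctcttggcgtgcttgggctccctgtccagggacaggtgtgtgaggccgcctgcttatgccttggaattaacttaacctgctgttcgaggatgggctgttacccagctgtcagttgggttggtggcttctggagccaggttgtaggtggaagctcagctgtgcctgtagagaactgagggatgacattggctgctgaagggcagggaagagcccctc
Wnt5b: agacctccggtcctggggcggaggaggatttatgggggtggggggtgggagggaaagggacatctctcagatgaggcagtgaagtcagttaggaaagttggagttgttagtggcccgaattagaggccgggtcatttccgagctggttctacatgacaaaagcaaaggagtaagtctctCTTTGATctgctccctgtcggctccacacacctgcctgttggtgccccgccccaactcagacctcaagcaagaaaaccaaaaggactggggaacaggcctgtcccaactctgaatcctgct
The Dvl2 window holds 3 copies of CACGTG and the Fzd9 window 1, and neither motif is in the Nkd1 window. Of the 28 listed genes with a promoter in the table, 4 held CACGTG (Dvl2, Fzd9, Lef1 and Wif1), where 8.09% of all 27025 genes in the table held it in any window. Of all 32851 windows 7.15% held it, and 0.0883% held 3 or more copies. CTTTGAT was found for Wnt5b, in 1 of its 3 windows, and for Wnt11, where 4.29% of all genes held it. A match describes letters in a window and is no binding site.

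Values are log2 of the processed signal minus the 75th percentile of the same array, so 0 lies at that percentile, and differences are B16-F1 minus D5.1G4. Testing required a signal well above background on 3 or more of the 6 arrays, and a gene was called if limma gave a Benjamini-Hochberg adjusted p of 0.05 or less and the fold was at least 2. All adjusted p-values come from this 2-sided limma fit over 18442 features, unless another is named, with n = 3 arrays a line. B16-F1 replicates 2 and 3, scanned together, had 62.0% and 61.7% of their spots above background, against 53.4% to 54.4% on the other arrays. B16-F1 replicate 1 was scanned with D5.1G4 replicates 2 and 3, and D5.1G4 replicate 1 alone. When B16-F1 replicate 1 is left out, no scan holds arrays of both lines, so line and scan cannot be told apart. Results are therefore also given within the 3 arrays scanned together, where 1 array stands for B16-F1 and the median difference over all features is -0.15. The 7 melanocyte markers (Mitf, Sox10, Tyr, Tyrp1, Dct, Pmel and Mlana) were above background on every array, and 0 of them was called. Markers of other cell types were not called in any list. Cdh5, Tek, Epcam, Dsg3, Pdgfra, Dpt and Col3a1 were not above background on any array, while Cd3e, Itgam, Pecam1, Kdr, Krt5 and Krt14 were above it on all 6. In cultures measured in bulk, fewer cells with a transcript and less of it per cell cannot be told apart.

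Wnt pathway genes differed between the lines in both directions. Of the 45 genes, 35 were well above background on 1 array or more, 31 were tested, and 15 of those were called (48.4%), where 15.2% of all features tested were called. In B16-F1, 8 were higher (Fzd6, Fzd7, Fzd9, Dkk3, Dvl2, Axin1, Tcf7 and Tcf7l1), where 6.28% of all features were, and 7 were lower (Wnt5b, Wnt6, Wnt10a, Porcn, Apc, Nkd1 and Nkd2), where 8.89% of all features were. The median difference over the 31 tested genes was 0.0017, beside -0.0042 over all features. In 22 of the 31 (71.0%) the lines had no overlap between their arrays, where this held for 48.5% of all features tested. Fzd9 and Nkd1 passed the filter only through the line in which they were bright. Wnt10a and Tcf7, above background on 1 array of the line in which they were dim, also depended on the bright line to pass. The list itself was chosen with earlier results of these data known. These counts therefore describe the listed genes that passed and are no support for a difference between the lines or for an excess in the pathway. Among genes above background on all 6 arrays, 11 of 23 were called, where 13.6% of such features were.

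**Figure D1:**
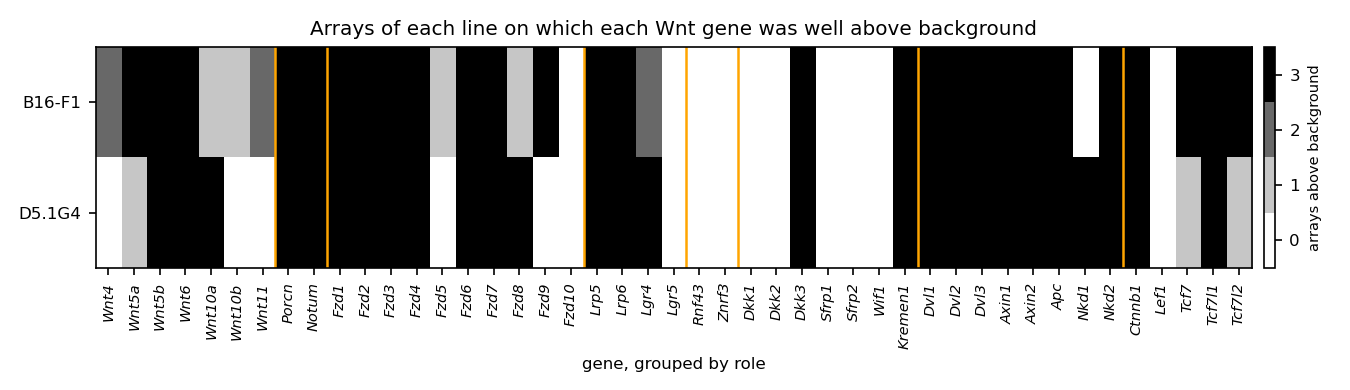
Number of arrays, of 3 in each line, on which each of the 45 Wnt genes was well above background by the probe that stood for it, with B16-F1 in the upper row and D5.1G4 in the lower row and genes grouped by role. Fzd9 was above background on 3 B16-F1 arrays and 0 D5.1G4 arrays, Nkd1 on 0 B16-F1 arrays and 3 D5.1G4 arrays, and 10 genes were not above background on any array.

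Of the 7 ligand genes in the list 4 were tested, of which 3 fell, where 8.89% of all features did, and 0 rose. Of 6 further Wnt ligands tested, described with the other pathway genes, 2 rose, where 6.28% of all features did, and 0 fell. Of these 2, Wnt3a had a bound of only 1.29-fold, and the Wnt9b call was lost under most other settings. Wnt10a, a ligand of the beta-catenin branch, had log2 signals of -6.00, -5.05 and -6.89 on the B16-F1 arrays, against -2.51, -2.56 and -2.24 on the D5.1G4 arrays. Only 1 of the 3 B16-F1 signals was above background, so no fold is given, and the gene fell by the test (fitted log2 difference -3.54, SE 0.45, adjusted p = 0.00202). Wnt6, its neighbour on chromosome 1 in the RefSeq order of protein-coding genes, had -4.81, -5.13 and -5.32 in B16-F1, against -3.55, -3.02 and -2.41 in D5.1G4. All B16-F1 arrays lay below all D5.1G4 arrays for both genes, and Wnt6 fell 4.27-fold (-2.09, SE 0.31, adjusted p = 0.00362). Wnt5b, a ligand known mainly from branches that do not use beta-catenin, had -1.43, -1.41 and -1.64 in B16-F1, against -0.03, 0.15 and -0.08 in D5.1G4. It was above background on all 6 arrays, did not overlap between the lines and fell 2.84-fold (-1.51, SE 0.13, adjusted p = 0.000484).

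Wnt5a, which in melanoma is known for promoting motility, was the tested ligand that was not called. It had -4.98, -5.24 and -4.31 in B16-F1, against -4.22, -4.98 and -5.29 in D5.1G4, and the arrays overlapped (-0.01, 95% interval -0.87 to 0.84, adjusted p = 0.98). Wnt5a was above background on 3 B16-F1 arrays but on only 1 D5.1G4 array, so this difference rests on signals near background. Wnt4 and Wnt11 were above background on 2 B16-F1 arrays and 0 D5.1G4 arrays, and Wnt10b on 1 B16-F1 array and 0 D5.1G4 arrays, too few to be tested. Within the arrays scanned together the differences were -3.60 for Wnt10a, -2.10 for Wnt6 and -1.46 for Wnt5b. With normexp background correction the calls of Wnt10a (-1.55, adjusted p = 0.19) and Wnt6 (-0.80, adjusted p = 0.495) were lost, and Wnt6 was also lost without the arrays of the first scan, B16-F1 replicates 2 and 3 (-1.82, adjusted p = 0.076). That setting, here and for other genes, leaves 1 B16-F1 array, which is assumed to vary like the D5.1G4 arrays.

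Of the enzymes that act on the lipid of the ligands, the one that adds it was lower and the one that removes it was not called. Porcn, the acyltransferase that attaches the lipid, had -3.41, -2.82 and -3.37 in B16-F1, against -2.22, -2.10 and -1.82 in D5.1G4. The lines did not overlap, and Porcn fell 2.23-fold (-1.15, SE 0.20, adjusted p = 0.00702), with -1.45 within the arrays scanned together. Normexp ended the call (-0.73, adjusted p = 0.304). Notum, a secreted enzyme that strips the lipid and so inactivates the ligand, had 1.60, 2.48 and 2.61 in B16-F1, against 2.28, 2.01 and 1.66 in D5.1G4. Its arrays overlapped (0.25, 95% interval -0.50 to 1.00, adjusted p = 0.571), and the difference within the arrays scanned together was -0.24.

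The Frizzled receptor genes included 3 that rose, 0 that fell and 5 that were not called, of 8 tested. Among all features tested, 6.28% rose and 8.89% fell. Fzd9 had -1.55, -1.61 and -2.02 in B16-F1, against -5.43, -6.33 and -5.77 in D5.1G4, where no array showed it well above background. A gene of this kind has only a bound in the dim line, which on each array is its own signal or the lowest signal above background, whichever is higher. Against that bound Fzd9 in B16-F1 was at least 10.6-fold higher (fitted difference 4.11, SE 0.26, adjusted p = 0.00018). Bounds hold for these processed signals only. With normexp the differences of Fzd9, Nkd1, Rspo3 and Celsr1 were smaller than their bounds. For genes with a bound, the fitted difference, SE and adjusted p take in signals that were not above background. Of all features tested, 3.57% were above background on every array of one line and on none of the other. Fzd6, a receptor known from mice for hair patterning through planar polarity, had 0.18, -0.22 and 0.05 in B16-F1, against -1.15, -1.24 and -1.38 in D5.1G4. It rose 2.40-fold (1.26, SE 0.15, adjusted p = 0.00149), with no overlap between the lines. Fzd7 was above the 75th percentile in both lines, with 1.25, 1.27 and 1.68 in B16-F1, against 0.40, 0.22 and 0.35 in D5.1G4. Its lines did not overlap either, and it rose 2.11-fold (1.08, SE 0.15, adjusted p = 0.00317).

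The Frizzled genes that were not called lay on both sides of 0. Fzd1 (-0.79, adjusted p = 0.0112) and Fzd3 (-0.75, adjusted p = 0.00589) passed the adjusted p but not the minimum fold, and in both the B16-F1 arrays lay below all D5.1G4 arrays. Fzd8 differed by -1.24 (adjusted p = 0.0642) , with a signal above background on 1 B16-F1 array and on all 3 D5.1G4 arrays. It was called lower with quantile normalization (-1.41, adjusted p = 0.0321), with the authors' deposited values (-1.39, adjusted p = 0.0342) and without B16-F1 replicate 2 (-1.73, adjusted p = 0.00227). The Fzd8 difference was -1.65 within the arrays scanned together and -1.61 without the arrays of the first scan. With normexp it shrank to -0.21 (adjusted p = 0.868). Fzd4 had -2.40, -1.43 and -1.26 in B16-F1, against -1.502, -1.81 and -1.78 in D5.1G4, and the 95% interval of its difference ran from -0.76 to 0.76. Fzd5 was above background on 1 B16-F1 array and Fzd10 on 0 arrays, so neither was tested. With normexp Fzd9 kept its call at 2.09. Within the arrays scanned together the differences were 4.49 for Fzd9, 1.49 for Fzd6 and 0.97 for Fzd7. Fzd7 lay close to the minimum fold, and its call was lost with scan as a block (0.97), without the arrays of the first scan (0.93) and without B16-F1 replicate 3 (0.94).

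The probes of Fzd2 disagreed in size. The brighter probe, which stood for the gene, had -1.72, -1.67 and -0.97 in B16-F1, against -1.80, -2.31 and -1.88 in D5.1G4 (0.54, adjusted p = 0.15). The dimmer probe had -3.01, -2.80 and -3.03 in B16-F1, against -5.37, -4.85 and -4.54 in D5.1G4. Both probes placed every B16-F1 array above every D5.1G4 array. Fitted probe by probe over 22132 probes, of which 15.7% were called, the dimmer probe rose by 1.97 (SE 0.22, limma adjusted p = 0.00136) and the brighter one was not called (adjusted p = 0.147). The mean of both probes was called (1.26, adjusted p = 0.00241). Of the 12 listed genes with several probes, only Fzd2 and Lrp6 had more than 1 that was above background on at least 3 arrays.

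**Figure D2:**
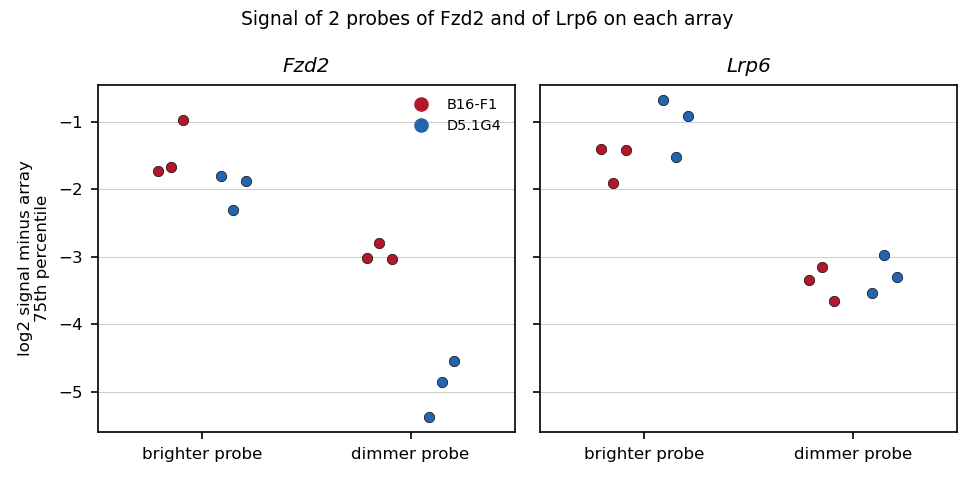
Log2 signal minus the array's 75th percentile for the brighter and the dimmer probe of Fzd2 and of Lrp6, 1 point per array, with B16-F1 left of D5.1G4. The dimmer Fzd2 probe lies between -3.03 and -2.80 on B16-F1 arrays and between -5.37 and -4.54 on D5.1G4 arrays, while both Lrp6 probes overlap between the lines.

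None of the co-receptor genes was called, with 3 of 4 tested. Lrp5 had -0.21, 0.62 and 0.33 in B16-F1, against -0.29, -0.14 and -0.28 in D5.1G4 (0.49, 95% interval -0.05 to 1.02, adjusted p = 0.142). Lrp6 differed by -0.54 (95% interval -1.17 to 0.10, adjusted p = 0.166), and its second probe by -0.11. Lgr4, a receptor for R-spondins, which strengthen Wnt responses, differed by -0.89 (adjusted p = 0.0662) and was called lower without B16-F1 replicate 1 (-1.17, adjusted p = 0.0173). Lgr4 differed by -0.17 within the arrays scanned together. Lgr5, and the ubiquitin ligase genes Rnf43 and Znrf3, whose products remove Frizzled receptors from the surface, were not above background on any array.

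Of the 6 genes listed as secreted antagonists among the 45, Dkk3 was the one above background on any array, and it was higher in B16-F1. Frzb and Dkkl1, from the further genes, are given with those genes. Whether Dkk3 or Dkkl1 acts against Wnts in these cells was not tested. Dkk3, a divergent member of the Dickkopf family, had 3.02, 3.12 and 2.68 in B16-F1, against 0.24, 0.11 and 0.10 in D5.1G4. It was above the 75th percentile on every array and rose 6.92-fold (2.79, SE 0.15, adjusted p = 9.4e-05), with 2.91 within the arrays scanned together. Dkk1 and Dkk2, which act on Lrp5 and Lrp6, and Sfrp1, Sfrp2 and Wif1, which bind the ligands, were not above background on any array that measured them. The Sfrp2 spot of D5.1G4 replicate 1 was left out as an outlier. Kremen1, a receptor for Dickkopf proteins, had 0.53, 0.49 and 0.50 in B16-F1, against 0.34, 0.11 and -0.03 in D5.1G4, and was not called (0.37, adjusted p = 0.0749).

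**Figure D3:**
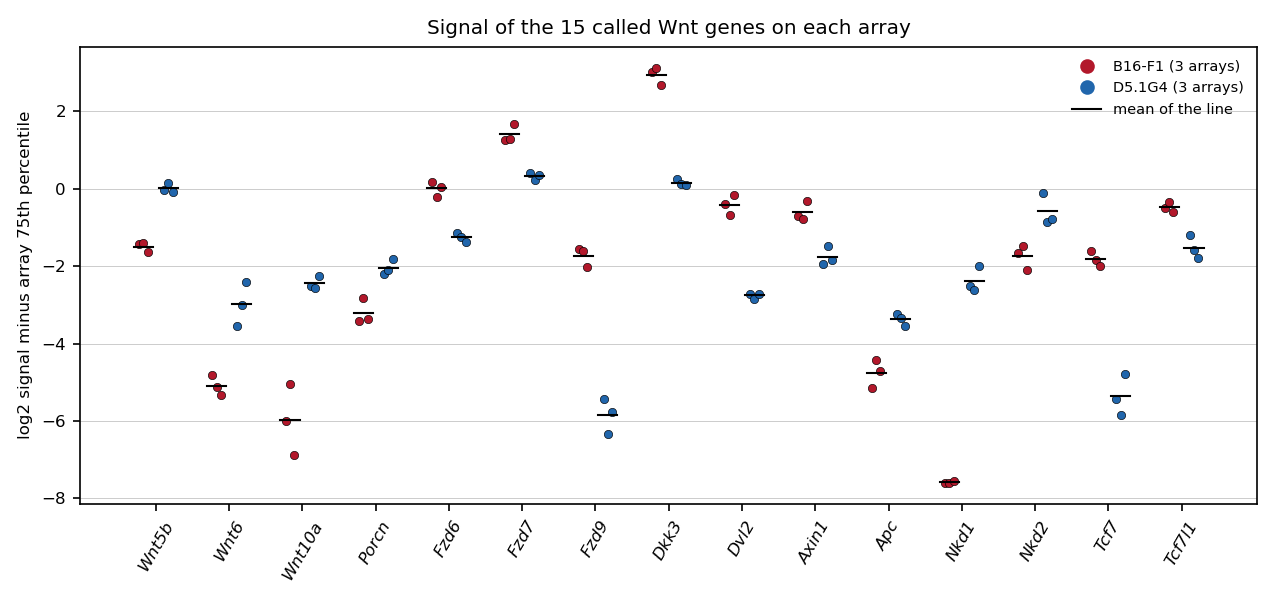
Log2 signal minus the array's 75th percentile of the 15 called Wnt genes, 1 point per array, with B16-F1 left of D5.1G4 for each gene and a bar at the mean of each line (n = 3). In each of the 15 genes the points of the lines do not overlap. Nkd1 in B16-F1 and Fzd9 in D5.1G4 are not above background on any array. Wnt10a is above it on 1 of 3 B16-F1 arrays, and Tcf7 on 1 of 3 D5.1G4 arrays. Levels of different genes come from different probes and cannot be compared.

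All 8 relay and destruction complex genes were tested, and 2 rose, 3 fell and 3 were not called. Among all features tested, 6.28% rose and 8.89% fell. Nkd1 encodes a protein that binds Dishevelled and restrains the pathway, and is itself a known target of beta-catenin. Its brighter probe gave -7.59, -7.60 and -7.56 in B16-F1, not well above background on any array, against -2.52, -2.63 and -1.99 in D5.1G4. Against the bound this probe was at least 10.7-fold lower in B16-F1 (fitted difference -5.20, SE 0.19, adjusted p = 3.58e-05). This SE and adjusted p take in B16-F1 signals at the floor, whose spread does not measure the spread of expression. A second Nkd1 probe disagreed: it was above background on 1 B16-F1 array (replicate 2, -4.71) and 0 D5.1G4 arrays, too few to be tested. The related Nkd2 had -1.66, -1.49 and -2.09 in B16-F1, against -0.12, -0.87 and -0.78 in D5.1G4. It was above background on all 6 arrays, did not overlap between the lines and fell 2.23-fold (-1.16, SE 0.26, adjusted p = 0.0165).

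The 3 Dishevelled genes did not move together. Dvl2 had -0.41, -0.68 and -0.17 in B16-F1, against -2.71, -2.85 and -2.71 in D5.1G4, with no overlap, and rose 5.06-fold (2.34, SE 0.16, adjusted p = 0.000222). Dvl1 differed by -0.76 (adjusted p = 0.00981), under the minimum fold, with 0.51, 0.42 and 0.29 in B16-F1, against 0.94, 1.19 and 1.36 in D5.1G4. Dvl3 differed by 0.88 (adjusted p = 0.122) and was called higher without B16-F1 replicate 1 (1.29, adjusted p = 0.00732), the array on which it was dimmest in its line. Dvl3 differed by 0.18 within the arrays scanned together, and by 0.04 without the arrays of the first scan.

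By the probes that stood for them, the scaffold genes Axin1 and Apc of the destruction complex went in opposite directions. Axin1 had -0.70, -0.78 and -0.32 in B16-F1, against -1.94, -1.47 and -1.85 in D5.1G4, and rose 2.23-fold (1.16, SE 0.19, adjusted p = 0.00542). Apc had -5.16, -4.43 and -4.70 in B16-F1, against -3.24, -3.34 and -3.54 in D5.1G4, and fell 2.62-fold (-1.39, SE 0.21, adjusted p = 0.00398). Neither gene overlapped between the lines by these probes. A second Apc probe was above background on 1 B16-F1 array and 0 D5.1G4 arrays, too few to be tested. Axin2, a scaffold that is also a widely used target of beta-catenin, had -3.99, -4.00 and -3.55 in B16-F1, against -2.10, -3.73 and -3.65 in D5.1G4. D5.1G4 replicate 1 was well above the other arrays of its line, and the difference was not called (-0.68, 95% interval -1.78 to 0.42, adjusted p = 0.29).

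Within the arrays scanned together the differences were -5.29 for Nkd1, -0.83 for Nkd2, 2.37 for Dvl2, 0.97 for Axin1 and -1.72 for Apc. The calls of Axin1 and Nkd2 were lost with scan as a block (0.97, adjusted p = 0.0818; -0.83, adjusted p = 0.114) and without the arrays of the first scan (1.06, adjusted p = 0.0704; -1.07, adjusted p = 0.13). Nkd2 was also lost without B16-F1 replicate 3 (-0.98, adjusted p = 0.0524) and without D5.1G4 replicate 1 (-0.92), and normexp ended the calls of Nkd1 (-1.70, adjusted p = 0.194), Nkd2 (-0.87, adjusted p = 0.141) and Apc (-0.48, adjusted p = 0.641).

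Of the nuclear factors, Tcf7 and Tcf7l1 were higher in B16-F1 and beta-catenin itself was not called. Tcf7 had -1.60, -1.86 and -1.99 in B16-F1, against -5.42, -5.85 and -4.79 in D5.1G4, where it was above background on 1 of 3 arrays. It rose by the test (fitted difference 3.53, SE 0.28, adjusted p = 0.0004), with 3.71 within the arrays scanned together and 2.00 with normexp, and no fold is given. Tcf7l1, whose protein acts mainly as a repressor, had -0.50, -0.34 and -0.62 in B16-F1, against -1.19, -1.58 and -1.79 in D5.1G4. It did not overlap between the lines and rose 2.05-fold (1.03, SE 0.18, adjusted p = 0.00698), with 1.18 within the arrays scanned together. The Tcf7l1 call was lost with normexp (0.93), with quantile normalization (0.98), without the arrays of the first scan (1.02, adjusted p = 0.0958), without D5.1G4 replicate 3 (0.90) and without B16-F1 replicate 2 (0.96).

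Ctnnb1, the gene of beta-catenin, had 5.21, 5.23 and 4.97 in B16-F1, against 5.05, 4.28 and 4.72 in D5.1G4. It was far above the 75th percentile on every array, and the lines overlapped (0.45, 95% interval -0.07 to 0.98, adjusted p = 0.156). Tcf7l2 spread widely within B16-F1, at -5.31, -3.13 and -3.75, against -4.60, -5.63 and -5.37 in D5.1G4, and was not called (1.13, adjusted p = 0.188). B16-F1 replicate 1 was the dim array here; without it the gene was called higher (1.76, adjusted p = 0.017), and without B16-F1 replicates 2 and 3 the difference was -0.11. Lef1 was not above background on any array.

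**Figure D4:**
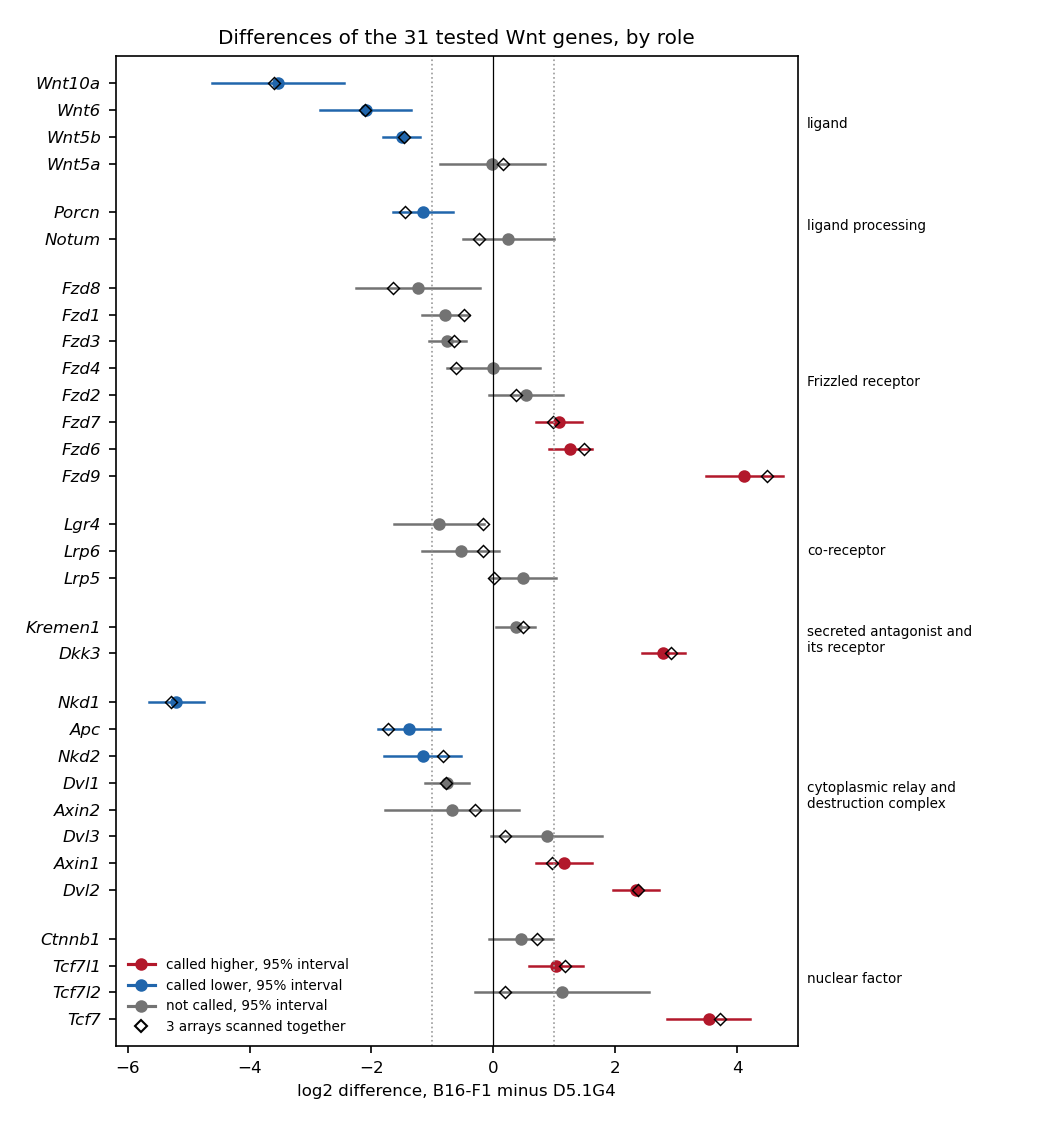
Log2 difference, B16-F1 minus D5.1G4, of the 31 tested Wnt genes grouped by role, with 95% intervals from limma (n = 3 arrays a line); dotted lines mark a 2-fold difference and open diamonds give the difference within the 3 arrays scanned together. The 3 called ligands and Porcn lie left of 0 and the 3 called Frizzled genes, Dkk3 and the called Tcf genes right of it. The diamonds of all 15 called genes have the same sign as the points. That sign follows from the lack of overlap between the arrays of the lines in these genes and is no separate support.

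To place these genes in the pathway, 88 further Wnt pathway genes were listed with earlier results of these data known. Of these 68 were tested, and 5 rose and 5 fell (14.7%), close to the 15.2% of all features. Frzb, a secreted protein that binds Wnts, had 0.24, -0.07 and -0.28 in B16-F1, against -2.03, -1.42 and -1.54 in D5.1G4, and rose 3.09-fold (1.63, SE 0.22, adjusted p = 0.00246). Btrc, the F-box protein that recognises marked beta-catenin, rose 3.36-fold (1.75, SE 0.15, adjusted p = 0.000495), although its second probe differed by -0.19 and the mean of its probes was not called (0.78). Nrcam, an adhesion molecule gene reported as a target, had 5.41, 5.40 and 5.07 in B16-F1, against 3.85, 3.85 and 4.05 in D5.1G4. Its arrays did not overlap, and it rose 2.59-fold (1.37, SE 0.14, adjusted p = 0.001).

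The ligand gene Wnt3a, with 3 signals above background in B16-F1 and 0 in D5.1G4, was higher by at least 1.29-fold (fitted difference 2.25, adjusted p = 0.012). Wnt9b, another ligand, rose by 1.43 (adjusted p = 0.0464), a call lost under most other settings. Rspo3, an R-spondin gene, was not above background on any B16-F1 array and was at least 2.85-fold lower there (fitted difference -2.33, adjusted p = 0.00107). Of the 3 planar polarity cadherin genes, Celsr1 was at least 3.19-fold lower (fitted difference -2.12, adjusted p = 0.000345), Celsr3 fell by 1.82 (adjusted p = 0.0006) and Celsr2 was not called (0.096, adjusted p = 0.544). Daam1, which links Dishevelled to the actin cytoskeleton (-1.01, adjusted p = 0.0172), and Dkkl1 (-1.02, adjusted p = 0.0122) fell by little more than the minimum fold; the Daam1 call was lost under 10 of 18 other settings and the Dkkl1 call under 4. Normexp ended the calls of the 5 genes that fell and of Wnt3a and Wnt9b, and gave -0.39 for Rspo3 and -0.38 for Celsr1, smaller than their bounds. Second probes of Vangl1 (-1.66, adjusted p over probes = 0.000843, against 0.03 for its brighter probe) and Cd44 (-1.05, adjusted p over probes = 0.00161, against -0.19) were called lower, and one of Csnk1e higher (1.29, adjusted p over probes = 0.0293, against 0.34), where the probe that stood for the gene was not called.

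Of the 15 reported beta-catenin targets tested, Nrcam rose and 0 fell, where 6.28% of all features rose and 8.89% fell. The targets Nkd1 and Axin2 were counted with the relay genes and are not among these 15. Nkd1 was called lower by its brighter probe (fitted difference -5.20), and Axin2 was not called (-0.68). Of the 15, 7 passed the adjusted p, in both directions, where 34.9% of all features did. Ccnd1, the cyclin D1 gene (0.84, adjusted p = 0.0107), Id2 (0.84, adjusted p = 0.0455), Myc (0.60, adjusted p = 0.0435) and Tnfrsf19 (0.59, adjusted p = 0.00861) lay higher in B16-F1 by less than the minimum fold. Snai2, fitted without D5.1G4 replicate 1, whose spot was left out (-0.78, adjusted p = 0.0134), and Sox9 (-0.76, adjusted p = 0.0476) lay lower. Mitf differed by 0.36 (adjusted p = 0.0957). The B16-F1 arrays lay above all D5.1G4 arrays for Nrcam, Ccnd1, Id2, Myc, Tnfrsf19 and Mitf, and below them for Sox9 and Jun. These 8 were 53.3% of the targets tested, close to the 48.5% of all features tested whose lines did not overlap. None of the 16 tested co-factors and repressors of beta-catenin was called, although 4 passed the adjusted p, where 34.9% of all features did.

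**Figure D5:**
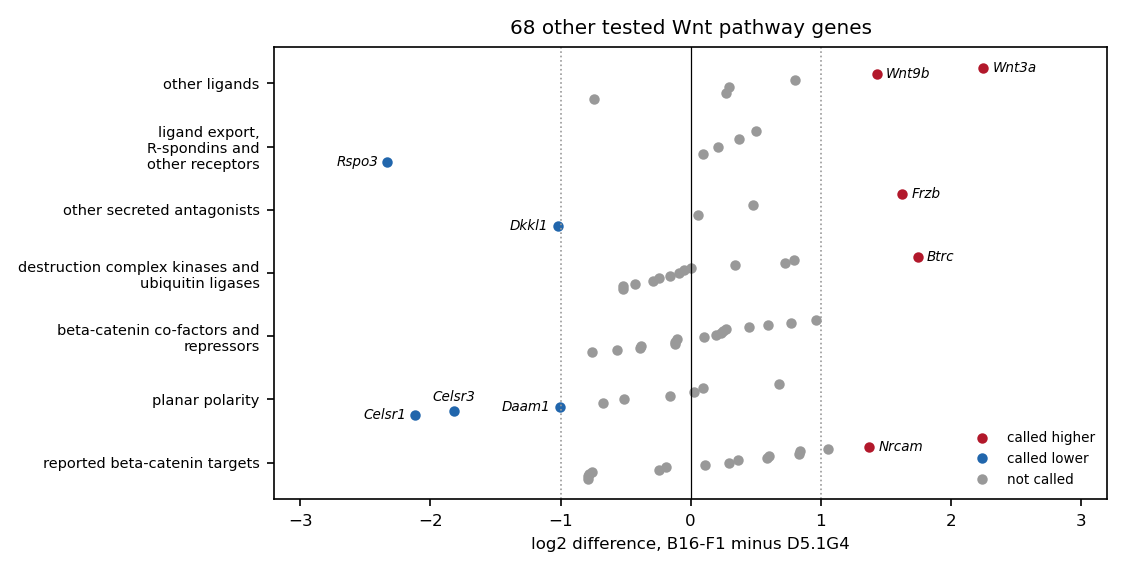
Log2 difference, B16-F1 minus D5.1G4, of 68 other tested Wnt pathway genes in 7 lists, 1 point per gene, with the 10 called genes named and dotted lines at a 2-fold difference. Rspo3, Celsr1 and Wnt3a are drawn at fitted differences although they were not above background in 1 line, so their order among the called genes is not known.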

How the data were processed

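RNA of 3 B16-F1 and 3 D5.1G4 samples was measured on one-colour arrays. The deposited scanner files give each spot's intensity, from Agilent Feature Extraction 11.0.1.1 per the submitters' processing notes; the processed intensity is background-subtracted and detrended within the array, per the file headers. The deposited table of the authors holds log2 values of 22147 probes, normalized by a method not given in the sources used here, and served as an alternative.

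Log2 of the processed intensity minus each array's 75th percentile was taken, and spots marked as non-uniform or population outliers (0.674% to 1.58% of an array) were left out. Accessions were matched without versions to RefSeq symbols (GRCm38.p6): 27234 of 39429 probes (69.1%) had 1 gene, 0 had several, and the rest were kept unnamed. Where a gene had several probes, the brightest on average represented it. No spot was saturated. The fit used lmFit and eBayes of limma 3.58.1 in R 4.3.3 over 18442 features and was tested on simulated data. For a bound, each array of the dim line was given the lowest signal above background or the probe's own signal, whichever was higher, and the mean of these was set against the bright line's mean. Normexp, with an offset of 50, ran on median spot and local background signals, the columns the files hold.

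The members and lists were chosen with earlier results of these data known. Called genes of the list of 45, and those above background on all arrays of 1 line and none of the other, were named with every array's value; of the other pathway genes up to 4 called per list and direction were named, and the rest named were chosen after their values were seen. The number of arrays limits the precision. Same-numbered replicates deviated from their line means with correlations of -0.39, -0.03 and -0.30, so the numbers were not taken as pairs. Alternatives were normexp, quantile normalization, the authors' values, filters on dim probes, probe means, outlier spots kept, replicate or scan as a block, and arrays left out.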

Additional observations from a re-analysis of the deposited data

How the results depend on the processing

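Of the 15 called Wnt genes, 6 (Wnt5b, Fzd6, Fzd9, Dvl2, Tcf7 and Dkk3) kept their call and direction under every setting that gave a value, but with normexp Fzd9 was 2.09 against a fitted 4.11 and Tcf7 2.00 against 3.53. The 8 higher calls became 5 without the arrays of the first scan, an alternative chosen after seeing the data that leaves 1 B16-F1 array, assumed to vary like the D5.1G4 arrays, and ranged from 7 to 10 when 1 array was left out. The 7 lower calls became 1 with normexp, which changes the input signals, the background model and the offset together, and ranged from 6 to 8 when 1 array was left out. Over all features normexp called 1274 in place of 2799. Among the other pathway genes the 5 higher calls became 3 with normexp and 3 with only genes above background on all 6 arrays, and ranged from 4 to 8 with 1 array left out. The 5 lower calls became 0 with normexp and 3 with that filter, and ranged from 3 to 5; the extremes of 8 and 3 came without B16-F1 replicate 1. With the replicate block the counts were 8 higher and 7 lower for the listed genes and 5 higher and 4 lower for the other pathway genes. Scan as a block rests on the 3 arrays scanned together and moves the median of all features to -0.15.

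Sign changes were limited to genes that were not called. Wnt5a was 0.29 with normexp, 0.16 with scan as a block and in the arrays scanned together, and -0.28 to 0.29 with 1 array left out. Fzd4 was -0.034 with quantile normalization, -0.00034 with the authors' values, -0.60 with scan as a block and in the arrays scanned together, -0.70 without the first scan and -0.21 to 0.35 with 1 array left out. Notum was -0.24 with scan as a block and in the arrays scanned together. Without the first scan Notum was -0.39 and Tcf7l2 -0.11. The cause was not tested.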
